A study of Mus musculus with 42 samples.

Results

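The genes described here are 9 markers of microglia, the resident macrophages of the brain, in whole brain of mice with and without a functional Pcif1 gene. They were taken by name from the brain ribosome footprinting table, where each matched 1 row, so 9 of 50765 genes are members. C1qa, C1qb and C1qc encode the chains of complement C1q. The other 6, called the receptor genes below, are Csf1r, Cx3cr1, P2ry12, Tmem119, Trem2 and Tyrobp, of which Tyrobp encodes an adaptor.

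PCIF1 is the enzyme that methylates an adenosine next to the mRNA cap, which gives m6Am. The knockout (KO) mice carried an 89 bp deletion made with Cas9 around exon 15 of Pcif1, which removes catalytic residues and adds an early stop codon, and came from 1 mouse line. The deletion is present in every cell of the animal, not in microglia alone. Embryos of a C57BL/6J by DBA/2J hybrid were injected and founders were crossed to C57BL/6J, and the controls were wild-type (WT) mice, all adult and all without a treatment named in the labels. The series holds 42 samples. The 12 used here are 3 input RNA libraries and 3 libraries of ribosome-protected fragments (footprints) from each genotype, made from the same lysates of 3 WT and 3 KO brains. Replicate numbers follow accession order, since the labels give none, and were not used to pair libraries, and input and footprint results of a genotype are not independent of each other.

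C1q is the recognition part of the classical complement pathway. Its A, B and C chains assemble into a molecule that binds immune complexes, dying cells and, in the developing and ageing brain, synapses. Microglia are the main source of C1q in the brain. CSF1R is the receptor for the growth factors CSF1 and IL-34, on which microglia depend for survival. CX3CR1 binds the neuronal chemokine CX3CL1, P2RY12 senses extracellular nucleotides and guides microglial processes, and TMEM119 is a surface protein used to tell microglia from other macrophages. TREM2 binds lipids and apolipoproteins and signals through the adaptor TYROBP.

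The C1q genes lie side by side on chromosome 4, in the order C1qb, C1qc, C1qa by RefSeq. RefSeq windows around the annotated start (GRCm38.p6) were found for 5 of the 9 genes. They are shown because m6Am forms only where the first transcribed base is A. Each line gives 12 bases before the start, the first transcribed base in capitals, and the next 12 bases, 5′ to 3′ on the gene's own strand.
C1qb, chr4:136886188-136886212, minus strand: agagagagggtcAgcctgttgggcc
C1qc, chr4:136892902-136892926, minus strand: tctcacagctctGaaacagtatgtt
Cx3cr1, chr9:120068284-120068308, minus strand: aagatgccctcaTagagagggaagc
P2ry12, chr3:59262973-59262997, minus strand: agtatgtctttaGtccttagcgcag
Trem2, chr17:48346389-48346413, plus strand: ccttgaatcacaGcgcctaccctag
Of these, C1qb alone has an A at the annotated start, while C1qc, P2ry12 and Trem2 have G and Cx3cr1 has T. Among all 32851 RefSeq windows the first base was A in 34.36%, G in 35.59%, C in 16.32% and T in 13.72%. The start used in these brains was not measured.

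The stretches of 250 bases before the starts of C1qb and C1qc are shown because the signals of these neighbours varied together most closely among the C1q chains. Capitals mark TGCTGA, a half-site of the Maf factors, in C1qb and the reverse complement of GAGGAAG, a core recognised by PU.1, in C1qc.
C1qb, chr4:136886201-136886450, minus strand: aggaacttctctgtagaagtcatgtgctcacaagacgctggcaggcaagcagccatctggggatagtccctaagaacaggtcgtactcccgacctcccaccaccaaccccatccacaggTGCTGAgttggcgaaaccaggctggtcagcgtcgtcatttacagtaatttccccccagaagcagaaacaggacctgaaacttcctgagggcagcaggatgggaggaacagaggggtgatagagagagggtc
C1qc, chr4:136892915-136893164, minus strand: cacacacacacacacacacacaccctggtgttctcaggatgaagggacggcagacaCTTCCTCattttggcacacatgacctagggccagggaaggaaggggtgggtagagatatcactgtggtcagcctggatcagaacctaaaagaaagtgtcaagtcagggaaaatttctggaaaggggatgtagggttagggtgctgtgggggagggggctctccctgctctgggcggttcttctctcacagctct
Both motifs were searched on both strands from 250 bases before the start to 50 after it. TGCTGA stood at -131 to -126 in C1qb. GAGGAAG stood, as its reverse complement, at -194 to -188 in C1qc and at -41 to -35 in Trem2. TGCTGA occurs in 19.48% and GAGGAAG in 13.63% of all 32851 windows, so such matches are common, and Cx3cr1 and P2ry12 held neither.

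Signals are the authors' scaled values per gene and library. Most were not whole multiples of the value of 1 read, so read numbers given here are approximate. A signal of 10 in at least 3 libraries of a fit was required for testing. All 9 members passed that filter in every comparison. Estimated reads totalled 15171376 to 17443749 in WT inputs, 5528738 to 16206024 in KO inputs, where replicate 2 was the shallow library, and 13613498 to 16559686 in footprints. Of these, protein-coding genes held 6229540 to 7179865 in WT inputs, 2365166 to 6945163 in KO inputs and 3340826 to 4573152 in footprints. Genes of the rRNA class took 48.7 to 73.8% of the signal in footprints and 4.14 to 6.08% in inputs. The RNA AY036118 took 25.8% of the signal in WT footprint replicate 1 and 13.9% in WT footprint replicate 3, and was listed at 0 in WT footprint replicate 2 and in all KO footprints. In inputs the order of the genotypes was the opposite, with AY036118 signals of 12.2 to 62.4 in WT and 1598 to 2420 in KO. Pcif1 itself had input signals of 252.6, 318.3 and 387.7 in WT against 254.5, 200.7 and 259.4 in KO. A gene total does not isolate the 89 deleted bases, so these values do not check the labels. All 12 libraries had Xist at 1.90 or below and Ddx3y at 364 to 529, so the groups did not differ in sex by these genes. All of 24 further microglia markers were listed above 0 in at least 1 library, and no member was listed at 0 in any library. Marker lists of blood leukocytes and choroid plexus also had every gene above 0 in at least 1 library, so this does not check the microglia label.

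Input signals of the C1q chains lay lower in every KO brain than in any WT brain, at mean levels of 35.1% of WT for C1qb, 39.3% for C1qc and 63.3% for C1qa, but no chain passed the test over all genes. For C1qb (ENSMUSG00000036905.8), which encodes the B chain, input signals were 125.1, 110.0 and 82.6 in WT against 55.3, 25.3 and 30.8 in KO. The highest KO library lay below the lowest WT library. C1qc (ENSMUSG00000036896.5), the gene of the C chain, had 162.9, 156.6 and 104.1 in WT against 75.1, 49.9 and 41.5 in KO, again without overlap. C1qa (ENSMUSG00000036887.5), the gene of the A chain, had 109.4, 103.1 and 83.7 in WT against 64.3, 60.9 and 62.3 in KO. Its KO libraries were close together, with an SD of 1.70 around a mean of 62.5 (n = 3), against 98.8 ± 13.4 (SD, n = 3) in WT.

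As log2 differences, KO minus WT, the inputs gave -1.54 ± 0.321 (SE) for C1qb, with a limma adjusted p of 0.191. C1qc gave -1.35 ± 0.277, with an adjusted p of 0.190, and C1qa gave -0.64 ± 0.163, with an adjusted p of 0.273. The 95% confidence intervals lay below 0 for each chain, from -2.30 to -0.78 for C1qb, from -2.003 to -0.69 for C1qc and from -1.03 to -0.26 for C1qa. None reached the adjusted threshold of 0.05. Without the shallow KO replicate 2, in which C1qb rested on an estimated 13.6 reads, the differences were -1.32 for C1qb, -1.29 for C1qc and -0.62 for C1qa. In whole brain, fewer microglia and less RNA per microglial cell cannot be told apart.

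**Figure D1:**
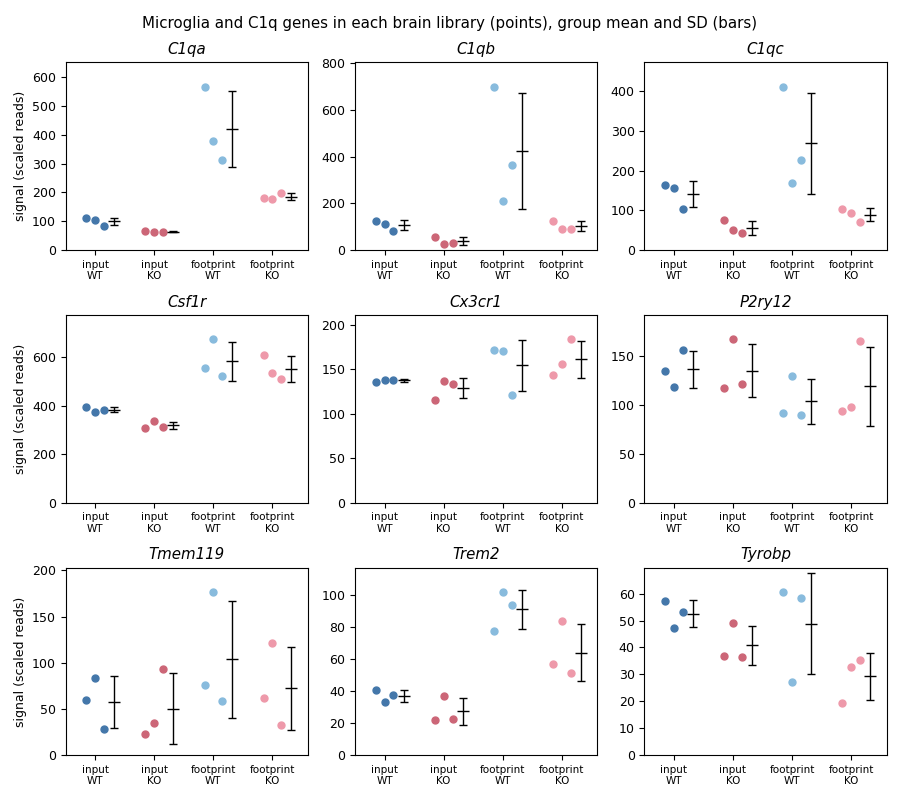
Signal (scaled reads) of each of the 9 genes in the 12 brain libraries, by group on the horizontal axis. Points are libraries, and the bar beside them gives the mean and SD of 3 libraries. The C1q panels show WT points above KO points in inputs and in footprints, while the groups of most receptor genes overlap.

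Footprints of the C1q chains showed the same arrangement and a wider spread in WT. C1qb footprint signals were 699.9, 211.5 and 363.6 in WT against 125.5, 90.0 and 87.3 in KO. C1qc footprints were 411.6, 167.7 and 226.4 in WT against 101.9, 92.5 and 70.2 in KO. C1qa footprints were 566.5, 379.2 and 311.3 in WT against 179.1, 176.3 and 198.0 in KO. Every WT library lay above every KO library for each chain, and WT replicate 1 was the highest for all 3 chains.

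The footprint log2 differences, KO minus WT, were -1.91 ± 0.418 (SE) for C1qb, -1.51 ± 0.347 for C1qc and -1.14 ± 0.241 for C1qa. Their limma adjusted p-values were 0.293, 0.312 and 0.275, so no chain passed. For C1qb and C1qc, but not for C1qa, this outcome depended on WT footprint replicate 2. That library was the lowest in WT for C1qb and C1qc and the only WT footprint library without AY036118. Without it, the difference was -2.33 with a limma adjusted p of 0.0207 for C1qb, -1.80 with an adjusted p of 0.0303 for C1qc and -1.18 with an adjusted p of 0.0529 for C1qa, and 956 genes passed in place of 32. With replicate 2 as the sole WT footprint library, an alternative chosen after seeing the data, the differences were -1.08, -0.94 and -1.04 for C1qb, C1qc and C1qa, with limma adjusted p-values of 0.391, 0.480 and 0.215. With the spread taken from all 12 libraries, C1qa passed with an adjusted p of 0.0290, while C1qb and C1qc stood at 0.0543 and 0.0674. The part of AY036118 in these values was not tested.

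Beside Csf1r of the same library, a scale free of factors common to the whole library, the C1q chains also stood apart by genotype. Per 100 of Csf1r signal, C1qb was at 31.8, 29.5 and 21.6 in WT inputs and at 17.9, 7.53 and 9.91 in KO inputs. In footprints it was at 126, 31.3 and 69.6 in WT and at 20.5, 16.8 and 17.1 in KO. C1qc ranged from 27.2 to 42.0 in WT inputs against 13.4 to 24.3 in KO inputs, and from 24.9 to 74.0 against 13.8 to 17.3 in footprints. C1qa ranged from 21.9 to 27.8 against 18.1 to 20.8 in inputs, and from 56.2 to 102 against 29.3 to 38.9 in footprints. No KO library reached the lowest WT library in any of these 6 settings, and the C1qa inputs came closest to meeting. The settings share lysates and the Csf1r denominator, so they are not independent. The share of all genes whose ratio to Csf1r separates in this way was not computed. Because Csf1r inputs in KO also lay below WT, these ratios differ by less than the signals do in the inputs.

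**Figure D2:**
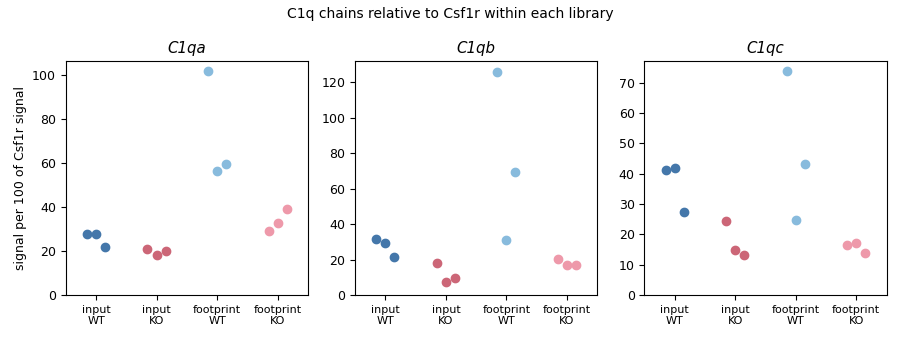
Signal of each C1q chain per 100 of Csf1r signal in the same library (vertical axis) by group (horizontal axis), 1 point per library. C1qb input points lie at 21.6 to 31.8 in WT and at 7.53 to 17.9 in KO, and WT footprint points spread widely.

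Within the C1q chains, the balance of A to B chain RNA varied between libraries. The C1qa to C1qb ratio of input signals was 0.875, 0.938 and 1.01 in WT against 1.16, 2.40 and 2.02 in KO. In footprints it was 0.809, 1.79 and 0.856 in WT against 1.43, 1.96 and 2.27 in KO, where WT replicate 2 lay among the KO libraries. The C1qc to C1qb ratio ran from 1.26 to 1.42 in WT inputs and from 1.35 to 1.97 in KO inputs, with overlap. In footprints the C1qc to C1qb ratio was 0.588, 0.793 and 0.623 in WT against 0.812, 1.03 and 0.804 in KO, without overlap. The difference between chains was not tested.

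The receptor genes did not share the separation seen for C1q, with the exception of Csf1r in the inputs. For Trem2 and Tyrobp inputs the overlap came from the shallow KO replicate 2 alone, on an estimated 20.0 and 26.4 reads. Csf1r (ENSMUSG00000024621.15) had input signals of 393.9, 373.2 and 382.3 in WT against 308.9, 336.5 and 311.2 in KO, which did not overlap. The log2 difference was -0.26 ± 0.0905 (SE), with a limma adjusted p of 0.402. Its footprints were 556.4, 674.6 and 522.4 in WT against 611.6, 536.1 and 509.6 in KO, which overlapped, with a log2 difference of -0.08 (95% confidence interval -0.46 to 0.31).

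Cx3cr1 (ENSMUSG00000052336.7) was the steadiest member in WT inputs, at 135.6, 138.3 and 138.4, against 115.5, 137.1 and 133.7 in KO. Its log2 difference was -0.10 in inputs (95% confidence interval -0.40 to 0.20) and 0.07 in footprints (-0.45 to 0.58). Cx3cr1 footprints were 172.0, 170.3 and 121.4 in WT against 143.6, 156.1 and 183.6 in KO. For this receptor the intervals leave out a change as large as the input estimate of any C1q chain.

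P2ry12 (ENSMUSG00000036353.13) had input signals of 133.9, 117.8 and 155.7 in WT against 117.3, 166.4 and 120.4 in KO. Its footprints were 91.2, 129.5 and 89.1 in WT against 93.2, 97.5 and 164.7 in KO. The genotypes overlapped in both kinds of library. The log2 differences were -0.02 (95% confidence interval -0.46 to 0.42) in inputs and 0.17 (-0.52 to 0.86) in footprints.

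Tmem119 (ENSMUSG00000054675.5) varied most between replicates. Its inputs were 60.1, 83.8 and 28.7 in WT against 22.9, 34.5 and 93.8 in KO, and its footprints were 76.1, 176.5 and 58.4 in WT against 61.9, 121.8 and 33.1 in KO. The coefficient of variation reached 75.4% in KO inputs. The intervals of the log2 differences, -1.70 to 1.08 in inputs and -1.86 to 0.78 in footprints, were too wide to show a change of the size seen in C1q or its absence.

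The receptor Trem2 and its adaptor Tyrobp had KO means below the WT means in both kinds of library, with overlap between genotypes in each. Trem2 (ENSMUSG00000023992.14) inputs were 40.5, 33.0 and 37.8 in WT against 22.3, 37.2 and 22.9 in KO, a log2 difference of -0.46 ± 0.273 (SE, limma adjusted p = 0.578). Trem2 footprints were 77.8, 101.9 and 93.6 in WT against 56.8, 84.2 and 51.4 in KO, a log2 difference of -0.52 ± 0.271 (adjusted p = 0.493). In each setting a single KO library, replicate 2, reached into the WT range.

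Tyrobp (ENSMUSG00000030579.10) inputs were 57.4, 47.2 and 53.1 in WT against 37.0, 49.2 and 36.4 in KO, a log2 difference of -0.37 ± 0.207 (SE, limma adjusted p = 0.561). Tyrobp footprints were 60.6, 27.1 and 58.5 in WT against 19.5, 32.8 and 35.5 in KO, a log2 difference of -0.68 ± 0.426 (adjusted p = 0.547). WT footprint replicate 2 was low for Tyrobp, as it was for C1qb and C1qc.

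**Figure D3:**
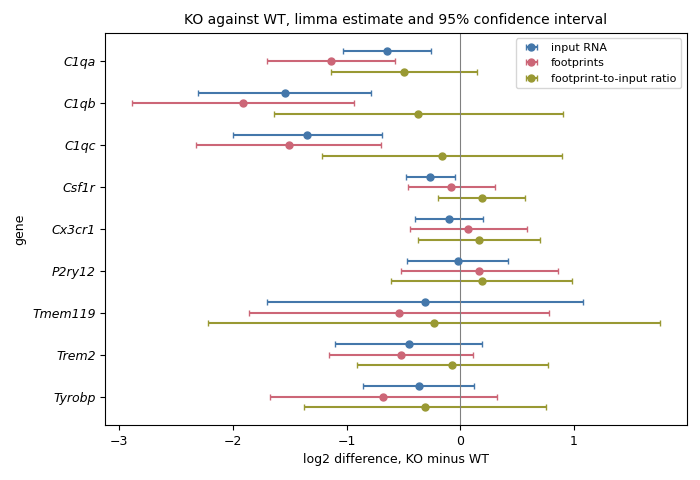
Log2 difference, KO minus WT, with its 95% confidence interval (horizontal axis) for each gene in input RNA, in footprints and in the footprint-to-input ratio, from limma with 3 libraries per group. The intervals of the C1q chains lie below 0 in inputs and footprints, and that of Csf1r in inputs only. Every interval of the ratio spans 0.

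Across the 9 members, 0 passed an adjusted p of 0.05 between genotypes in inputs, where 0.255% of 15298 tested genes passed, and 0 passed in footprints, where 0.223% of 14377 passed. At an unadjusted p below 0.05 stood 4 members in inputs (the C1q chains and Csf1r) against 10.5% of all genes, and 3 in footprints (the C1q chains) against 10.8%. The same genes were those with every KO library below every WT library, a pattern held by 7.84% of genes in inputs and 8.74% in footprints. The median log2 difference of the 9 members was -0.37 in inputs and -0.54 in footprints, against 0.02 and 0.01 for all genes tested. All 9 input estimates and 7 of 9 footprint estimates were negative, against 46.8% and 49.0% of all genes tested. The members share cells and the C1q chains are neighbours, so these counts are not counts of independent genes.

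The footprint-to-input ratio, or translational efficiency, was compared between genotypes as an interaction over the 12 libraries. Of the members, 0 passed at an adjusted p of 0.05, against 0.188% of 16527 genes, and 0 stood below an unadjusted p of 0.05, against 9.78% of genes. For C1qa, KO minus WT was -0.49 on the log2 scale (95% confidence interval -1.14 to 0.15), for C1qb -0.37 (-1.64 to 0.90) and for C1qc -0.16 (-1.22 to 0.89). Csf1r stood at 0.19 (-0.19 to 0.57), Cx3cr1 at 0.17 (-0.37 to 0.70) and Trem2 at -0.07 (-0.91 to 0.77). P2ry12 stood at 0.19 (-0.61 to 0.98), Tmem119 at -0.23 (-2.22 to 1.76) and Tyrobp at -0.31 (-1.37 to 0.75). The wide intervals of C1qb and C1qc allow for a change of more than 1 log2 unit downwards. Without WT footprint replicate 1 the C1qb and C1qc estimates turned positive, at 0.075 and 0.20.

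The authors' deposited table gives its own log2 value for the same difference in ratio. In the authors' deposited table the values were -0.52 for C1qa, -0.59 for C1qb and -0.27 for C1qc, with adjusted p-values of 0.596, 0.808 and 0.938. For the receptor genes the authors' deposited table ran from -0.32 for Tmem119 to 0.23 for P2ry12, with adjusted p-values from 0.773 for Csf1r to 0.994 for Trem2.

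How strongly each gene was represented in footprints relative to its RNA differed among the members. In WT, 4 of the 9 members passed with footprints above input, as did 25.2% of 16527 genes. In either direction 54.3% of genes passed. C1qa had the largest difference of the 9, at 2.04 ± 0.207 (SE) on the log2 scale, with a limma adjusted p of 9.45e-06 and a ratio of mean signals of 4.24. C1qb followed at 1.85 ± 0.408 (adjusted p = 0.00264), then Trem2 at 1.27 ± 0.270 (adjusted p = 0.00206) and Csf1r at 0.60 ± 0.123 (adjusted p = 0.0016). C1qc, at 0.85 ± 0.339, stood just outside with an adjusted p of 0.0533. It passed in 3 alternatives, without WT footprint replicate 2 (1.13, adjusted p = 0.0153), without KO input replicate 1 (adjusted p = 0.0483) and with a pseudocount of 10 (adjusted p = 0.0458), and was lowest with WT footprint replicate 2 as the sole WT footprint library (0.27). With WT footprint replicate 2 as the sole WT footprint library the C1qb value was 1.01 with an adjusted p of 0.0856.

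In KO the same 4 members passed with footprints above input, as did 24.0% of genes, against 52.4% in either direction. The differences were 1.54 for C1qa, 1.48 for C1qb, 1.20 for Trem2 and 0.79 for Csf1r, with limma adjusted p-values of 8.36e-05, 0.0103, 0.00309 and 0.000255. C1qc was at 0.69 with an adjusted p of 0.112. P2ry12 (-0.40 in WT, -0.22 in KO) and Tyrobp (-0.19 and -0.50) had estimates below 0, and Cx3cr1 (0.15 and 0.32) and Tmem119 (0.80 and 0.57) above 0, without passing in either genotype. The ratio of Trem2 to Tyrobp signal was 0.698 to 0.711 in WT inputs and 0.603 to 0.757 in KO inputs, against 1.29 to 3.76 in WT and 1.45 to 2.92 in KO footprints. The difference between receptor and adaptor was not tested. Both kinds of library carry the authors' scaling, and the median of all genes was -0.09 in either genotype. Scaling by the protein-coding total moved that median to -0.36 in WT and -0.30 in KO. Under it the 4 passing members still passed in both genotypes, and P2ry12 passed as lower in WT footprints (-0.67, adjusted p = 0.0468), while the Cx3cr1 value in WT turned to -0.11.

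**Figure D4:**
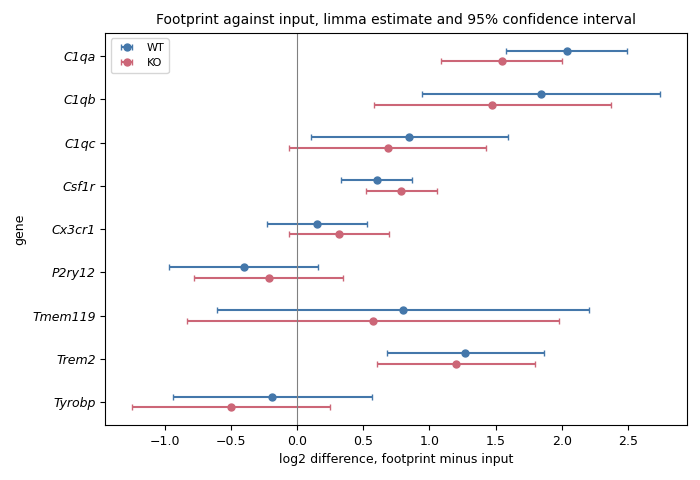
Log2 difference of footprint minus input signal with its 95% confidence interval (horizontal axis) for each gene in WT and in KO, from 1 limma model over 12 libraries. The intervals of C1qa, C1qb, Trem2 and Csf1r lie above 0 in both genotypes, and that of C1qc in WT only. The genotypes' intervals overlap for every gene.

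The signals of the members varied together to different extents once group means were removed. Over the 12 libraries, deviations of C1qb and C1qc correlated with Pearson's r of 0.93, C1qa and C1qc with 0.64, and C1qa and C1qb with 0.61. For the 18 pairs of a C1q chain with a receptor gene the median r was -0.20, and for the 15 pairs of receptor genes 0.18. Inputs and footprints differed for the receptor pairs, with a median r of 0.54 over the 6 inputs and -0.050 over the 6 footprints. Csf1r with Tyrobp gave 0.99 in inputs and -0.97 in footprints. Among KO inputs both were highest in the shallow replicate 2. These are descriptions over libraries that share lysates and depth. The 10 genes with a mean signal of at least 100 whose deviations were most like the mean deviation of the 9 members were Atp6v1f (r = 0.897), Tagln3, Hist1h2bg, Sdr39u1, Irs1, Pkia, Ints1, H1f0, Pik3r1 and Pomgnt2 (0.854), out of 8609 genes. Over the 6 inputs they were Nek9 (0.998), Gm7536, Rps27a, Cnih1, Arl6, Slitrk4, Rnf146, B2m, Gm48493 and Gm5124 (0.986). As the highest of 8609 genes over few libraries, such values are large partly by selection, and no relation to microglia is read from them.

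Genes next to the C1q cluster were examined for a change across the region. Of the 6 RefSeq genes on each side, 8 of 12 were tested and by limma 0 passed between genotypes in inputs, footprints or the ratio, nor did any stand below an unadjusted p of 0.05. The nearest on either side, the receptor kinase genes Ephb2 and Epha8, had log2 differences of -0.11 and 0.05 in inputs and -0.34 and -0.49 in footprints.

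Further microglia genes were described from lists. Of 24 other microglia identity markers, 22 were tested in inputs and 23 in footprints. In inputs 0 passed, 4 stood below an unadjusted p of 0.05 and 18 had negative estimates, with a median log2 difference of -0.23. In footprints 0 passed, 4 stood below an unadjusted p of 0.05 and 17 were negative, with a median of -0.45. Of all genes tested, 46.8% were negative in inputs and 49.0% in footprints, and 10.5% and 10.8% stood below an unadjusted p of 0.05. The smallest p in both belonged to Itgam, which encodes the alpha chain of complement receptor 3. Itgam inputs were 228.3, 259.2 and 108.4 in WT against 41.1, 33.9 and 30.1 in KO, a log2 difference of -2.39 ± 0.339 (SE, limma adjusted p = 0.0636). Itgam footprints were 251.8, 551.2 and 325.7 in WT against 55.8, 232.3 and 74.6 in KO, at -1.84 ± 0.543 (adjusted p = 0.409). Itgam did not overlap between genotypes in inputs or in footprints. KO lay below WT in this way for 7.84% of genes in inputs and 8.74% in footprints.

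Transcription factors of microglia had a median log2 difference of 0.09 over the 11 of 14 tested in inputs and -0.17 over the 13 tested in footprints. By limma 0 passed, and 0 and 1 stood below an unadjusted p of 0.05, against 10.5% and 10.8% of all genes tested. Of 12 ligands of the microglial receptors, 11 were tested in inputs, where 0 passed. Below an unadjusted p of 0.05 stood 5, against 10.5% of all genes tested. The ligands went both ways, with 4 lower and 3 higher in KO without overlap. The ligands of Csf1r stood on opposite sides. Il34 inputs were 279.1, 273.0 and 320.8 in WT against 183.3, 111.7 and 214.2 in KO (-0.82 ± 0.240, SE, limma adjusted p = 0.346). Csf1 inputs were 66.2, 86.4 and 63.9 in WT against 99.5, 99.6 and 101.6 in KO (0.48 ± 0.167, adjusted p = 0.410). Neither pair of groups overlapped in inputs, whereas the footprints of both genes overlapped between genotypes. In inputs, KO lay below WT without overlap for 7.84% of genes tested and above WT for 10.6%.

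Lists of microglial state and signalling held no gene that passed between genotypes. Median log2 differences in inputs and footprints were -0.15 and -0.13 for Trem2 and Tyrobp signalling (12 genes tested in each), -0.11 and 0.18 for disease-associated microglia (13 and 15), and -0.10 and -0.64 for microglial cytokines and activation (8 and 9). Purinergic receptors and ectonucleotidases gave -0.26 and 0.01 (10 and 9). By limma 0 genes of these lists passed between genotypes. At an unadjusted p below 0.05 stood 0, 4, 0 and 2 genes in inputs and 1, 1, 3 and 1 in footprints, in the order named. Of all genes tested, 10.5% did so in inputs and 10.8% in footprints. Lyz2, the lysozyme gene of macrophages and neutrophils, had inputs of 131.6, 111.6 and 84.2 in WT against 50.2, 48.3 and 43.1 in KO (-1.17 ± 0.205, SE, limma adjusted p = 0.133). Cd9, a membrane protein that myelinating cells also carry, had footprints of 422 to 575 in WT against 807 to 901 in KO (0.80 ± 0.162, adjusted p = 0.249). Neither passed. The genotypes did not overlap in either case. KO lay below WT in this way for 7.84% of genes in inputs, and above WT for 8.46% in footprints.

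The rest of the complement system was sparsely measured in brain. In the pathway list, 8 of 21 genes were tested in inputs, with a median log2 difference of 0.18. In footprints 6 were tested, with a median of 0.43. By limma 0 passed in either, and 0 and 1 stood below an unadjusted p of 0.05. C3, the central component of the cascade, had input signals of 28.2, 36.8 and 34.7 in WT against 36.3, 26.7 and 5.29 in KO (-0.87 ± 0.648, SE, limma adjusted p = 0.646). Of 17 complement regulators, 14 were tested in each, and 0 passed (0 in inputs and 2 in footprints at an unadjusted p below 0.05). Their median log2 difference was 0.06 in inputs and -0.19 in footprints, with 5 and 9 negative estimates. Serping1, the gene of the inhibitor of C1, gave the lowest input estimate of the 14, at -0.49 ± 0.246 (limma adjusted p = 0.524). Sez6l2 and Csmd3, which had smaller p, gave -0.24 and 0.28. Of 23 other genes with a C1q domain, 16 were tested in inputs and 17 in footprints, with medians of 0.05 and -0.12. Of these 0 passed, and 1 and 3 stood below an unadjusted p of 0.05, against 10.5% and 10.8% of all genes tested.

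Sums of markers of other cells are given beside the C1q values, since some differed in range between the genotypes. The summed signal of 16 blood leukocyte markers ran from 74.7 to 226 in WT inputs and from 44.4 to 70.1 in KO inputs, and from 178 to 282 against 67.4 to 143 in footprints. Ccr2, a marker of monocytes, was listed at 0 in 5 of 12 libraries and at 4.79 or less in the others. The 3 leukocyte markers tested in inputs were the neutrophil genes S100a8, S100a9 and Ngp, with log2 differences of -1.58, -0.94 and -1.59 and limma adjusted p-values of 0.364, 0.531 and 0.360. The sum of 12 markers of border macrophages, which also express C1q, ran from 213 to 354 in WT and from 183 to 290 in KO inputs, with overlap, and from 222 to 455 against 178 to 227 in footprints. Of these 12 markers, 4 were tested in inputs and all 4 estimates were negative, with a median log2 difference of -0.41. In footprints 6 were tested and 3 were negative, with a median of 0.05. By limma 0 passed in either, and 0 and 1 stood below an unadjusted p of 0.05. Among them, Mrc1 was at 40.3, 41.9 and 47.2 in WT against 35.0, 53.5 and 37.6 in KO inputs.

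The summed signal of 24 microglia identity markers was 2319 to 2744 in WT against 1929 to 2098 in KO inputs, and 3968 to 5023 against 4030 to 4054 in footprints. That of 14 oligodendrocyte markers was 22413 to 23434 in WT and 32320 to 34679 in KO inputs, and 37525 to 54174 against 63860 to 71027 in footprints. Sums of neuron, astrocyte, endothelial, choroid plexus and red blood cell markers overlapped between genotypes in both kinds of library. In inputs, 7 of the 14 oligodendrocyte markers stood below an unadjusted p of 0.05, against 10.5% of all genes tested. Of 14 endothelial and mural markers, 1 passed in footprints and in the ratio, Abcb1a, a transporter of the blood-brain barrier, named after its values were seen. Abcb1a footprints were 20.5, 18.1 and 16.9 in WT against 308.6, 415.6 and 716.7 in KO, a log2 difference of 4.54 ± 0.329 (SE, limma adjusted p = 0.00274), while its inputs overlapped. The nuclear RNA Malat1 was at 43478, 47229 and 38735 in WT inputs and 86920, 77476 and 62582 in KO inputs (log2 difference 0.80, limma adjusted p = 0.142). The part of these cells and RNAs in the C1q result was not tested.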

How the data were processed

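Ribosome footprinting libraries and input RNA libraries of brain from WT and Pcif1 KO mice were analysed, 3 per group. The authors deposited 1 table with a signal per gene and library, and with a log2 fold and an adjusted p-value per gene. Per its values the signal is scaled and is not counts. Tools listed without a role in the submitters' processing notes are STAR, Salmon 0.12.0, DESeq2 1.25.10, DESeq and R 3.6.2. Build, annotation and strand handling are not stated there. Between 7.74 and 15.6% of values were whole multiples (tolerance 0.01) of the value of 1 read, so no count model was run, and read numbers are estimates.

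Tests used limma 3.58.1 (trend) in R 4.3.3 on log2(signal + 1), which understates changes of low genes, over all genes whose signal reached 10 in 3 or more libraries, with Benjamini-Hochberg adjustment at 0.05. Genotypes were compared in inputs and in footprints (6 libraries each). The genotype difference in footprint-to-input ratio, and footprint against input within a genotype, came from 1 model of 12 libraries. In simulated data, 42% of genes changed by 2 log2 units and 9% of those changed by 1 were recovered for inputs, and 63% and 12% for footprints. The simulated spread was averaged over input and footprint groups together, unlike the tests of 6 libraries, so these rates are approximate. Per the labels' protocols, brains came from 3 mice of each genotype. The models treat inputs and footprints as unpaired although they share lysates.

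The members, the 18 gene lists and the tests were chosen with earlier results of these data known. All 9 members are named in each comparison. From the lists on microglia or complement, genes that passed may be named, or else up to 3 with the smallest p. Likeness is Pearson's r of deviations from group means. Neighbours, sequences and start sites are RefSeq's (GRCm38.p6), and gene coordinates of the table are not used. Alternatives were the pseudocount, the filter, the scaling, the source of the spread, and leaving out each library. The testes tables and tissue RNA-seq were not used here, and results for some marker genes are not reported here.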

Additional observations from a re-analysis of the deposited data

How the results depend on the processing

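Counts of genes passing over the whole table depended on the libraries. Leaving out 1 library at a time gave 7 to 24 genes in inputs (39 with all), 0 to 956 in footprints (32) and 15 to 874 for the ratio (31), where 956 and 874 came without WT footprint replicate 2. Footprint calls numbered 21 with a pseudocount of 0.5, 143 with the spread from all 12 libraries, when 1 member passed, and 21 with WT footprint replicate 2 as the sole WT footprint library, when the ratio gave 75. Members passing in footprints ranged from 0 to 2 when 1 library was left out. The input and footprint differences of C1qa, C1qb and C1qc kept their negative sign in every alternative run. With WT footprint replicate 2 alone, which is then assumed to vary like the other groups, these estimates changed sign: in footprints Cx3cr1 (-0.088), P2ry12 (-0.18) and Tyrobp (0.061), and in the ratio C1qb (0.46), C1qc (0.41), Csf1r (-0.027), P2ry12 (-0.16) and Tyrobp (0.43). Scaling by the protein-coding total reversed Cx3cr1 in footprint against input in WT (-0.11).

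Leaving out 1 library also reversed estimates near 0. The ranges in inputs were -0.88 to 0.11 for Tmem119 and -0.18 to 0.081 for P2ry12. In footprints they were -0.15 to 0.031 for Csf1r, -0.095 to 0.16 for Cx3cr1 and -0.093 to 0.34 for P2ry12. In the ratio they were -0.79 to 0.075 for C1qb, -0.45 to 0.20 for C1qc, -0.70 to 0.34 for Tmem119, -0.28 to 0.16 for Trem2 and -0.072 to 0.36 for P2ry12. Tyrobp in footprint against input in WT ranged from -0.38 to 0.18. The cause of these changes was not tested. No paired analysis was run, because the labels carry no replicate numbers that tie an input to a footprint library. Depth limits C1qb most in KO input replicate 2, at 13.6 estimated reads.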
